A study of Mus musculus with 203 samples.

Results

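The response to interleukin 4 (IL4) was compared gene by gene between RAW cells depleted of KDM1A and control RAW cells. All 16 RNA-seq libraries of the knockdown experiment were used, out of 203 samples in the series. Genes were kept when their log2 value was 1 or more in at least 4 libraries, which left 12905 of the 25094 genes in the table. This filter did not use how a gene responded, whereas many of the genes named below were chosen by their values. For each gene the IL4 response (mean of the IL4 libraries minus mean of the control libraries) was computed in each line, and the response in shGFP cells was subtracted from that in shKDM1A cells. This value is called the difference of responses. It is on the log2 scale, positive where the response was larger (more positive or less negative) in shKDM1A cells and negative where it was smaller.

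RAW264.7 is a mouse macrophage line, labelled as of BALB/c strain. All 4 groups carried a lentiviral short hairpin RNA: shGFP, whose target is not a mouse gene, or shKDM1A, directed at Kdm1a. Cells of each line were left without IL4 or given it at 20 ng/ml during 6 h, and every group has 4 libraries. The methods name 1 hairpin against Kdm1a, so loss of KDM1A and any other property of that hairpin or of that line cannot be told apart. The labels do not say whether the libraries of a group came from separate cultures, so p-values measure the spread between these samples.

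IL4 binds a receptor on macrophages that activates the transcription factor STAT6 and moves the cells towards the alternative state, in which genes such as Mrc1 and Ptgs1 are turned on. KDM1A removes methyl groups from histone H3, usually as part of the CoREST complex, and can repress or assist transcription depending on the site. The transcription factor ATF4, which returns below, drives genes for amino acid synthesis, uptake and loading onto tRNA when amino acids are short or other stress signals are present.

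The hairpin's target Kdm1a (mm9, chromosome 4, 136106448 to 136158638) was measured at 11.21, 11.23, 11.13 and 11.17 in shGFP control libraries and 11.12, 11.10, 11.12 and 11.07 in shGFP IL4 libraries. In shKDM1A cells the values were 10.36, 10.32, 10.23 and 10.29 without IL4 and 10.32, 10.33, 10.34 and 10.28 with IL4. Every shKDM1A library was below every shGFP library. The log2 difference between the lines was -0.88 (SE 0.03) without IL4 and -0.79 (SE 0.03) with IL4, and these did not pass the test for differing from each other (0.10, SE 0.04, adjusted p = 0.159 from limma).

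The libraries held 17554721 to 27782568 tags. Of the 10 macrophage markers examined, 9 passed the filter, while no B cell, fibroblast or epithelial marker did. Of the T cell markers Lck passed, of the neutrophil markers S100a8 and of the endothelial markers Pecam1 and Kdr, and none of these had a called difference of responses (limma, 0 at an unadjusted p under 0.05). One pattern between libraries moved with the results below. In the libraries shKDM1A IL4 1 and 3, transcripts of 8 kb or more were lower relative to transcripts under 1 kb, by medians of -0.152 and -0.114 on the log2 scale, while in libraries 2 and 4 of the same group the values were 0.029 and 0.021. The shGFP libraries also varied, from -0.074 to 0.045 without IL4 and from 0.051 to 0.081 with it. Genes of 8 kb or more had a median IL4 response of 0.051 in shGFP and -0.052 in shKDM1A cells. Counts with shKDM1A IL4 libraries 2 and 4 only are thus not free of the length pattern. Genes called smaller had a median transcript length of 4092 bases, against 2767 for all genes tested and 1894 for genes called larger. Among genes of 1 to 2 kb, 6.77% were called larger and 0.91% smaller, whereas among genes of 6 to 8 kb 0.848% were called larger and 5.33% smaller. With the trend against length removed, 1 called gene of the 60 chosen by the naming rule (Nfatc1) lost its call and Flt1, at 0.00, changed sign. List counts are also given with the trend against length removed from each library, and with libraries 2 and 4 as the only shKDM1A IL4 libraries.

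**Figure D1:**
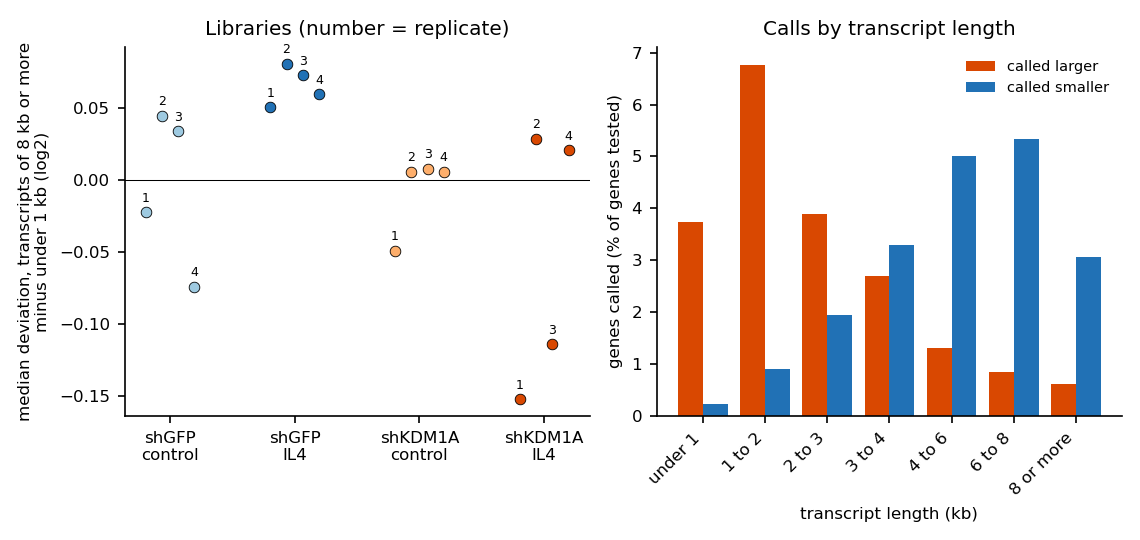
Left, each point is 1 library: the median deviation from the gene means of transcripts of 8 kb or more minus that of transcripts under 1 kb (log2), with replicate numbers. shKDM1A IL4 libraries 1 and 3 lie lowest, at -0.152 and -0.114. Right, bars give the percentage of tested genes called larger or smaller by transcript length (kb), and calls shift from larger at 1 to 2 kb (6.77%) to smaller at 6 to 8 kb (5.33%).

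IL4 changed 3466 genes in shGFP cells (1694 up, 1772 down) and 3497 in shKDM1A cells (1752 up, 1745 down) at an adjusted p under 0.05. The difference of responses passed the same threshold for 791 genes, 6.13% of those tested. It was larger in shKDM1A cells for 459 genes (3.56%) and smaller for 332 (2.57%). Most differences were small: the median size among called genes was 0.180, 17 exceeded 0.5 and 1 exceeded 1. Across all tested genes the responses of the 2 lines, which share no library, had a Pearson correlation of 0.77, a description across genes that are not independent. With the length trend removed 746 genes were called, 599 of them among the 791, and with libraries 2 and 4 as the only shKDM1A IL4 libraries 348 were called, 311 of them among the 791. With libraries 1 and 3 only, 2282 genes were called. Without the filter on low values 431 genes were called, and without shGFP IL4 library 3 the number called larger was 300. In bulk RNA, fewer cells with a transcript and less of it per cell cannot be told apart.

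**Figure D2:**
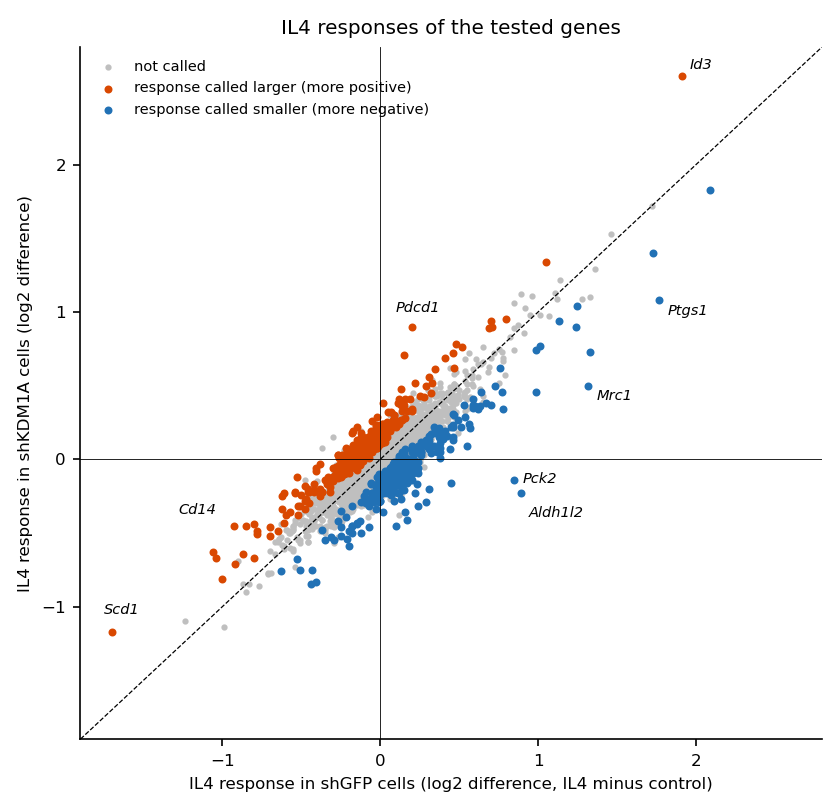
Each point is 1 of the 12905 genes: IL4 response in shGFP cells (x axis, log2) against IL4 response in shKDM1A cells (y axis, log2), with the dashed line where they are equal. The 459 genes called larger lie above the line and the 332 called smaller below it, and Pck2 and Aldh1l2 rose with IL4 in shGFP cells and fell in shKDM1A cells.

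The 2 most negative differences were those of Aldh1l2 and Pck2, which IL4 raised in shGFP cells and lowered in shKDM1A cells, as it did Asns. The promoters of Pck2, Asns and Chac1, and of Aars and Pycr1 with smaller differences (-0.27 and -0.24), are shown because they hold the letters TGATGNAA, the core to which ATF4 and its partners bind in amino acid response elements. No promoter was matched for Aldh1l2. Sequences are RefSeq promoters of GRCm38.p6, upstream of the annotated start, 5′ to 3′ on the strand of the gene. Capitals mark TGATGNAA, or its reverse complement where the match is on the other strand.
Pck2, chr14:55540016-55540265, + strand: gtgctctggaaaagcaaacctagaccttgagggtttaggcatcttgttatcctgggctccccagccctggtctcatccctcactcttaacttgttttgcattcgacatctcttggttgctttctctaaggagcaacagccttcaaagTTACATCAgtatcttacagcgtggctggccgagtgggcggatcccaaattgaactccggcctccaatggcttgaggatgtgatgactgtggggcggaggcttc
Asns, chr6:7693210-7693459, - strand: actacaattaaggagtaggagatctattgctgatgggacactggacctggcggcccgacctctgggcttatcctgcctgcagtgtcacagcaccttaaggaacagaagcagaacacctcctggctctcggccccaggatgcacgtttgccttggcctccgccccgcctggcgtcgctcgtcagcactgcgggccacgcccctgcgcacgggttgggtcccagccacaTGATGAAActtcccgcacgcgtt
Chac1, chr2:119351019-119351086, + strand: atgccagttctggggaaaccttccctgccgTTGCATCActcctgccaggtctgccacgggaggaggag
Aars, chr8:111033700-111033767, + strand: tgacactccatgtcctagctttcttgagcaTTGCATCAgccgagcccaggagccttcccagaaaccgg
Pycr1, chr11:120643814-120643881, - strand: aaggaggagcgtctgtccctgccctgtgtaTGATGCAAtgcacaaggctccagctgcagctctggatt
In Pck2 the match lay 103 bases upstream of the start and in Asns 23 bases. In windows from 250 bases before to 50 after the start, on either strand, TGATGNAA occurred in 18 of 252 genes called smaller that had a promoter (7.14%), in 6 of 366 called larger (1.64%) and in 239 of 10022 tested (2.38%). On the list of ATF4 targets described below it occurred in 7 of 22 promoters (31.8%), including those of Nupr1 and Slc7a11, which were not called. Among members called smaller it occurred in 5 of 12 (41.7%). The motif was chosen after the values were seen, and a match is not a measured binding site.

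Pck2, the mitochondrial phosphoenolpyruvate carboxykinase (chromosome 14 of mm9, 56159103 to 56168857), had values of 9.61, 9.57, 9.56 and 9.71 in shGFP control libraries and 10.49, 10.42, 10.49 and 10.48 with IL4. In shKDM1A cells it was 10.25, 10.21, 10.19 and 10.22 without IL4 and 10.14, 10.07, 10.06 and 10.03 with it. In each line the control and IL4 libraries did not overlap, and they moved in opposite directions. IL4 thus went with a 1.81-fold higher value in shGFP cells and a 0.906-fold value in shKDM1A cells, a difference of responses of -1.0 (SE 0.04, adjusted p = 4.0e-09).

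Aldh1l2, a mitochondrial folate enzyme (chromosome 10, 82950192 to 82996885), had the only difference beyond 1. Its values were 8.24, 8.40, 8.39 and 8.26 in shGFP controls and 9.27, 9.26, 9.18 and 9.15 with IL4, against 8.93, 8.83, 8.91 and 8.96 in shKDM1A controls and 8.57, 8.80, 8.68 and 8.68 with IL4. The response was 0.89 in shGFP cells and -0.23 in shKDM1A cells, so the difference was -1.12 (SE 0.07, adjusted p = 8.7e-08). Asns, asparagine synthetase (chromosome 6, 7625165 to 7643209), had values of 11.22, 11.24, 11.21 and 11.21 in shGFP controls and 11.62, 11.72, 11.64 and 11.71 with IL4. In shKDM1A cells the values were 11.61, 11.62, 11.62 and 11.59 without IL4 and 11.48, 11.42, 11.48 and 11.43 with IL4. All shKDM1A IL4 libraries were thus below all shKDM1A controls, although the controls of that line were already near the IL4 level of shGFP cells. The difference for Asns was -0.61 (SE 0.03, adjusted p = 3.6e-08).

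**Figure D3:**
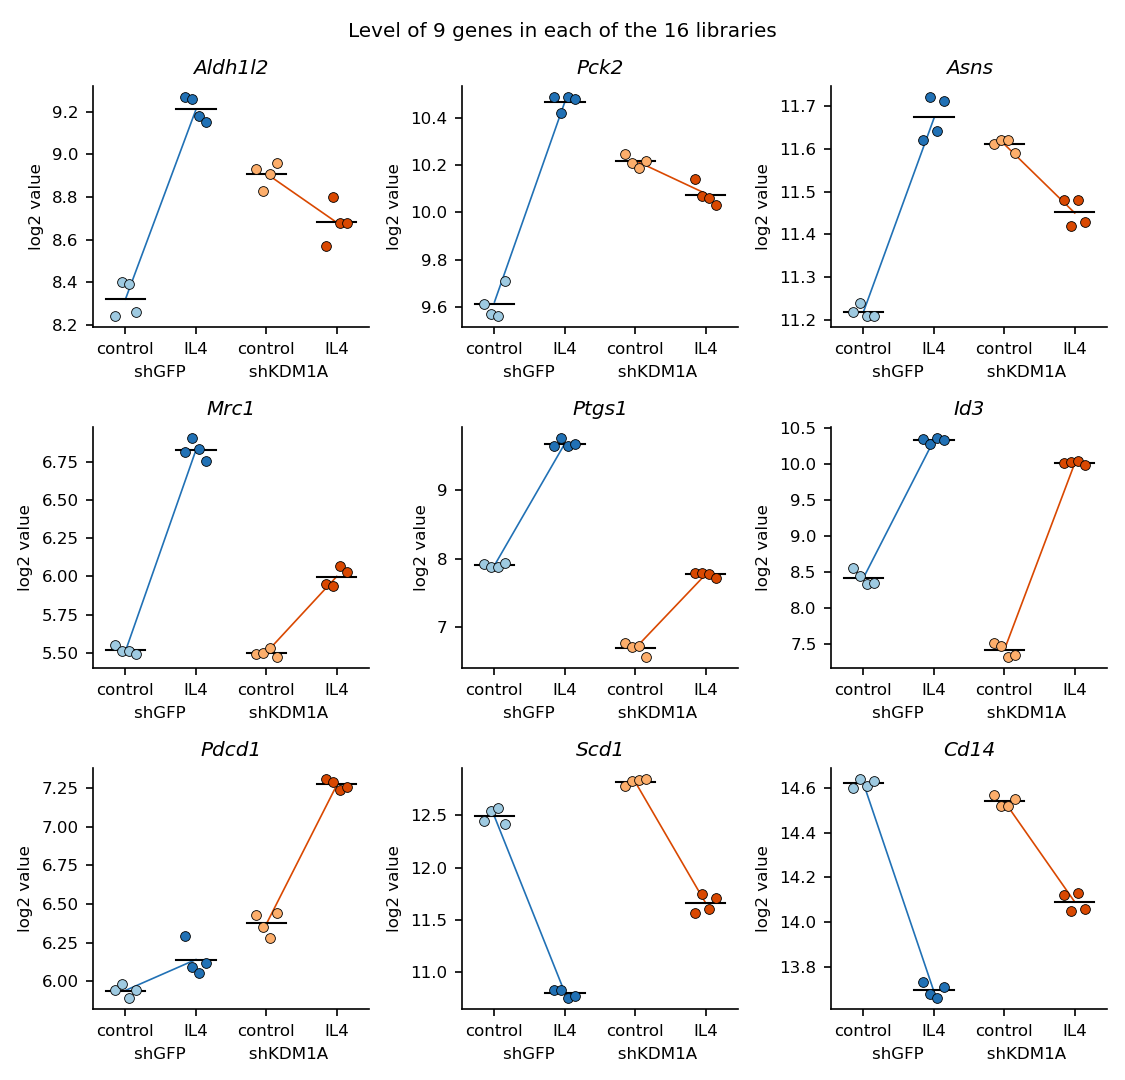
Log2 value (y axis) of 9 genes in the 16 libraries, 4 per group. Points are libraries, bars are group means and lines join control and IL4 means of 1 line. Aldh1l2, Pck2 and Asns rose with IL4 in shGFP cells and fell in shKDM1A cells, Mrc1 and Ptgs1 rose less in shKDM1A cells, Id3 and Pdcd1 rose more, and Scd1 and Cd14 fell less.

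Of 26 tested genes on a list of ATF4 targets, 15 were called smaller (57.7%, against 2.57% of all genes tested) and none larger, with a median difference of -0.19, against -0.001 over all genes tested. Lists, this 1 included, were chosen with earlier results of these data known, so such shares are not independent of them. The ATF4 list's median response was 0.12 in shGFP cells and -0.13 in shKDM1A cells, and its median transcript length was 2053 bases. Removing the length trend gave 18 called smaller, and the count with libraries 2 and 4 only was 13. Besides Pck2 and Asns, the called members included Trib3, a pseudokinase that feeds back on ATF4, with a difference of -0.58, and Chac1, which degrades glutathione, with -0.39. They also included Psph, of serine synthesis, with -0.32, and Eif4ebp1, an inhibitor of translation initiation, with -0.28. The transporter subunit Slc3a2 had responses of 0.31 and 0.07. The transcript of Atf4 itself fell in both lines, by 0.33 in shGFP and 0.26 in shKDM1A cells, and its difference of 0.07 did not pass (adjusted p = 0.234), nor did that of Ddit3 (-0.09, adjusted p = 0.473).

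Slc1a4, a neutral amino acid transporter, had a difference of -0.52 (SE 0.06). Gpt2, a mitochondrial alanine transaminase, rose by 0.31 in shGFP cells and fell by 0.20 in shKDM1A cells, and Slc6a9, a glycine transporter, rose by 0.22 and fell by 0.23. Of 20 cytosolic aminoacyl-tRNA synthetases, a list drawn up after the values were seen, 11 were called smaller, against 2.57% of all genes tested, and none larger, and the median difference was -0.15. Without shGFP control library 4, 1 was called larger. The largest were Lars and Cars, both at -0.33, and Nars at -0.32. Lars rose by 0.24 in shGFP cells and fell by 0.09 in shKDM1A cells. Dars (0.01), Rars (0.01) and Qars (0.00) were among the 9 not called. The count of 11 was the same with libraries 2 and 4 only and with the length trend removed.

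Without IL4 the ATF4 list was higher in shKDM1A than in shGFP cells, with a median log2 difference of 0.15, and with IL4 it was -0.06. These comparisons share libraries with the difference of responses and are given only as levels. For Pck2 the lines differed by 0.60 without IL4 and by -0.39 with IL4.

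Of 31 listed genes known to respond to IL4 in macrophages, 19 passed the filter. The response was weaker in shKDM1A cells for a few, and the difference did not pass for most. Several of those not called hardly responded in shGFP cells, such as Clec10a (0.01), Pparg (0.04) and Hbegf (0.06), so a missing call says little for them. Others, such as Flt1 and Egr2 below, did respond. The list's median response was 0.25 in each line. Mrc1, the mannose receptor (chromosome 2, 14151041 to 14253650), had values of 5.55, 5.51, 5.51 and 5.49 in shGFP controls and 6.82, 6.91, 6.84 and 6.76 with IL4. In shKDM1A cells the values were 5.49, 5.50, 5.53 and 5.47 without IL4 and 5.95, 5.94, 6.07 and 6.03 with IL4. The controls of the lines overlapped, while the IL4 libraries did not. The response was 2.5-fold in shGFP and 1.42-fold in shKDM1A cells, a difference of -0.82 (SE 0.05, adjusted p = 3.6e-08).

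Ptgs1, the cyclooxygenase of basal prostaglandin synthesis (chromosome 2, 36085946 to 36107791), had values of 7.92, 7.88, 7.87 and 7.94 in shGFP controls and 9.64, 9.76, 9.64 and 9.67 with IL4. In shKDM1A cells it was 6.76, 6.71, 6.72 and 6.56 without IL4 and 7.79, 7.79, 7.78 and 7.72 with IL4. Here the lines differed already without IL4, and the IL4 libraries of shKDM1A cells stayed below the controls of shGFP cells. The response was 3.42-fold against 2.12-fold, a difference of -0.69 (SE 0.05, adjusted p = 1.2e-06).

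Flt1, a receptor of the VEGF family, behaved otherwise. Its level was lower in shKDM1A cells, by 0.54 without and with IL4, and its response was 0.75 in each line. The difference was 0.00, with a 95% interval of -0.15 to 0.15. On the linear scale (2 to the power of each value), where the lower level in shKDM1A cells counts, the difference of Flt1 was -137 and passed (adjusted p = 0.0181). Of 19 tested IL4 target genes 3 were called smaller and 1 larger (21.1% in all, against 6.13% of all genes tested), with a median of -0.04. The larger count was 2 without any 1 of shGFP control 3, shGFP IL4 3 or 4 and shKDM1A IL4 2 or 4. Besides Mrc1 and Ptgs1, Slc7a2 was called smaller, at -0.12 and a low mean of 2.41. With libraries 2 and 4 only the list had 2 called smaller and 0 larger, and with the length trend removed 2 smaller, since Slc7a2 lost its call in both. Clec7a, a receptor for fungal glucans, had responses of 0.89 and 1.12 (difference 0.23, adjusted p = 0.0506), and Egr2, a transcription factor induced by IL4, had 0.91 and 0.86 (adjusted p = 0.755).

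In the IL4 receptor pathway 18 genes were tested, with 2 called smaller and 1 larger (16.7% in all, against 6.13% of all genes tested), counts that were the same with the length trend removed and with libraries 2 and 4 only. Socs1, a feedback inhibitor of JAK kinases, rose by 0.70 in shGFP and 0.37 in shKDM1A cells (difference -0.33, SE 0.07, adjusted p = 0.0149, a call lost without the filter on low values), and Cish, of the same family, rose by 0.38 and 0.19. Il13ra1, which pairs with the IL4 receptor, fell by 0.20 in shGFP cells and was at 0.06 in shKDM1A cells. The receptor chain Il4ra (-0.07) and Stat6 (-0.03) did not pass. The letters TTC and GAA with 4 bases between them, the spacing that STAT6 prefers, occurred on either strand in 4.37% of promoters of genes called smaller, 6.01% of those called larger and 5.59% of all tested. With 3 bases between them, the spacing of other STAT factors, they occurred in 6.35%, 7.38% and 6.96%. Neither spacing occurred in the promoter windows of Ptgs1 or Mrc1.

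Other genes with smaller responses had varied functions. Angptl2, a secreted glycoprotein, rose by 1.33 in shGFP and 0.73 in shKDM1A cells, but its shKDM1A controls were already 1.24 higher. On the linear scale its direction turned and the difference did not pass (adjusted p = 0.803). Tgfbr1, the type I TGF-beta receptor, rose by 0.99 and 0.46. Bcar3, an adaptor of integrin signalling, rose by 0.29 and fell by 0.29. Serpinb6b, a protease inhibitor, rose by 0.24 and fell by 0.32. Fosl2, an AP-1 subunit, was 10.30, 10.37, 10.34 and 10.24 in shGFP controls and 10.42, 10.41, 10.41 and 10.41 with IL4, while in shKDM1A cells it went from 11.16, 11.09, 11.20 and 11.17 to 10.66, 10.75, 10.63 and 10.76. Its small rise in shGFP cells stood beside a clear fall in shKDM1A cells, and the difference was -0.55 (SE 0.05, adjusted p = 5.6e-06). Tnfaip2 fell in both lines, by 0.43 and by 0.75, a difference that did not pass on the linear scale.

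**Figure D4:**
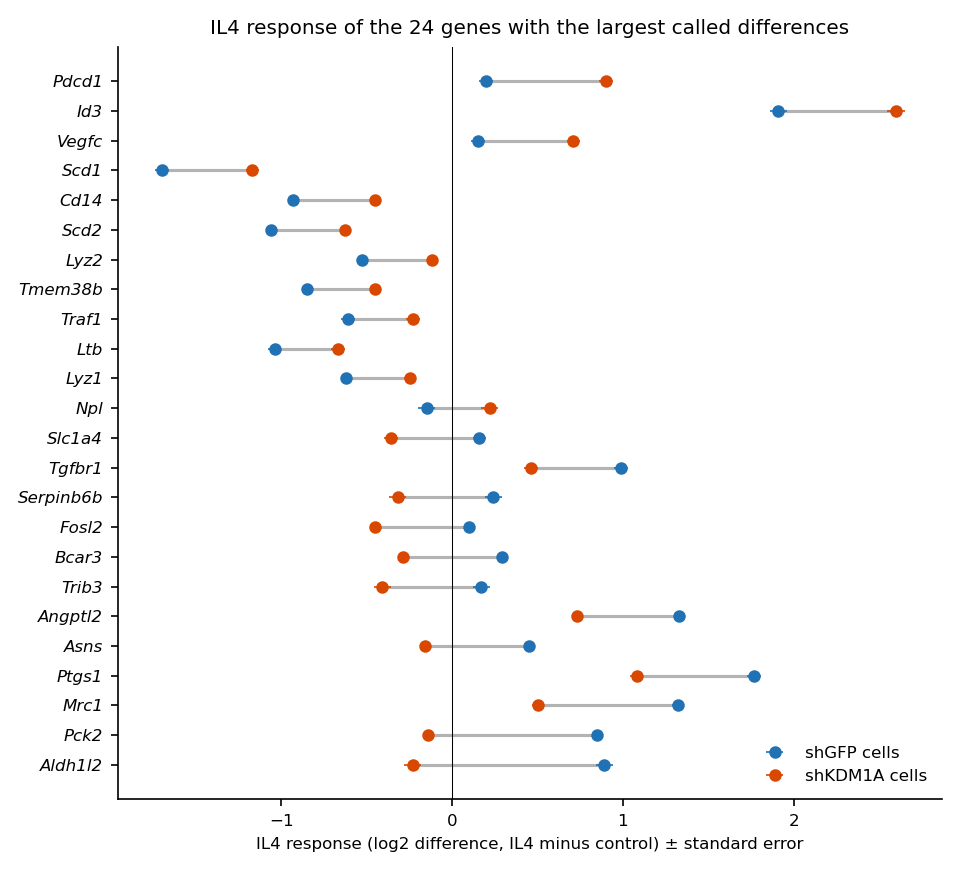
IL4 response (x axis, log2 difference of IL4 and control means, with standard error) of the 12 most negative and 12 most positive called differences among genes with a mean of at least 5. Blue points are shGFP cells and orange points shKDM1A cells. The 2 points of Pck2, Aldh1l2, Asns, Trib3, Bcar3, Serpinb6b, Fosl2, Slc1a4 and Npl lie on opposite sides of 0.

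Of the 12 most positive differences most belonged to genes that IL4 raised more in shKDM1A cells or lowered less there, while Npl fell in shGFP cells and rose in shKDM1A cells. Among genes raised more, Pdcd1, the inhibitory receptor PD-1 (chromosome 1, 95934882 to 95949130), had values of 5.94, 5.98, 5.89 and 5.94 in shGFP controls and 6.29, 6.09, 6.05 and 6.12 with IL4. In shKDM1A cells it went from 6.43, 6.35, 6.28 and 6.44 to 7.31, 7.29, 7.24 and 7.26, above every other library. The response was 1.15-fold against 1.87-fold (difference 0.70, SE 0.06, adjusted p = 8.0e-06). Vegfc, a lymphatic growth factor, was similar, with responses of 0.15 and 0.71. Both genes were higher in shKDM1A controls too, by 0.44 for Pdcd1 and 0.88 for Vegfc.

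Id3, an inhibitor of helix-loop-helix transcription factors (chromosome 4, 135699737 to 135701307), rose the most of the named genes. It was 8.56, 8.44, 8.33 and 8.35 in shGFP controls and 10.35, 10.27, 10.36 and 10.33 with IL4, against 7.52, 7.47, 7.32 and 7.35 and then 10.01, 10.02, 10.04 and 9.99 in shKDM1A cells. The fold was 3.75 against 6.05, but from a lower control level, and the IL4 level of shKDM1A cells stayed below that of shGFP cells. The log2 difference was 0.69 (SE 0.07, adjusted p = 2.2e-05), while on the linear scale it was negative and did not pass (adjusted p = 0.0703).

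Among genes lowered less were the stearoyl-CoA desaturases, which make monounsaturated fatty acids. Scd1 (chromosome 19, 44468940 to 44482199) was 12.45, 12.54, 12.57 and 12.42 in shGFP controls and 10.83, 10.83, 10.75 and 10.77 with IL4. In shKDM1A cells it was 12.78, 12.83, 12.84 and 12.85, then 11.57, 11.75, 11.60 and 11.71. IL4 left 0.309 of the control value in shGFP cells and 0.445 in shKDM1A cells (difference 0.53, SE 0.06, adjusted p = 5.4e-05), while on the linear scale the difference was -29.9 and did not pass (adjusted p = 0.957). Scd2 fell by 1.06 and by 0.63. Of 13 fatty acid synthesis genes 4 were called larger (30.8%, against 3.56% of all genes), also with the length trend removed and with libraries 2 and 4 only, the others being Fads2 (0.17) and Srebf1 (0.15), a driver of lipid synthesis, while Acly (0.00) and Elovl6 (0.02) were not called. The median of the list was 0.05. Cholesterol synthesis genes had median responses of -0.46 and -0.36, and Fdps (0.23) and Lss (0.13) of 24 were called larger (8.33%). The call of Lss was lost with libraries 2 and 4 only and without shGFP control 4, shGFP IL4 3 or shKDM1A control 3. The list had 2 called larger with libraries 2 and 4 only and 5 with the length trend removed. Abcg1, a cholesterol exporter, fell by 1.00 and 0.81, with a difference that was not positive on the linear scale.

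Of the 9 tested macrophage markers 3 were called larger (Cd14, Lyz2 and Fcgr1) and 2 smaller, 55.6% in all against 6.13% of all genes tested. Adgre1, the F4/80 antigen, rose by 1.24 in shGFP and 0.90 in shKDM1A cells (-0.33, adjusted p = 0.00118), and Itgam, an integrin chain, had responses of -0.03 and -0.19 (-0.16, adjusted p = 0.0435). The count of smaller calls was 1 with the length trend removed, with libraries 2 and 4 only, and without any 1 of 12 of the 16 libraries. Cd14, the co-receptor for lipopolysaccharide, was 14.60, 14.64, 14.61 and 14.63 in shGFP controls and 13.73, 13.68, 13.66 and 13.71 with IL4, against 14.57, 14.52, 14.52 and 14.55 and then 14.12, 14.05, 14.13 and 14.06 in shKDM1A cells. IL4 libraries of the lines did not overlap, with a difference of 0.48 (SE 0.03, adjusted p = 2.8e-07). Lyz2, lysozyme, fell by 0.53 in shGFP and 0.12 in shKDM1A cells. Its near copy Lyz1, whose reads may not be fully separable from those of Lyz2, fell by 0.62 and 0.25 from a control level 2.86 higher in shKDM1A cells, and on the linear scale its direction turned and passed (adjusted p = 0.022). Traf1, an adaptor of TNF receptors, fell by 0.61 and 0.23, and Ltb, a TNF family ligand, by 1.04 and 0.67. Tmem38b, an ion channel of the endoplasmic reticulum, fell by 0.85 and 0.45. Of 29 inflammatory and NF-kB target genes 5 were called larger and 2 smaller (24.1% in all, against 6.13% of all genes tested), with a median of -0.01. Removing the length trend gave 4 larger and 3 smaller, and libraries 2 and 4 only gave 5 and 2. The larger count was 3 without any 1 of shGFP control 2 or 3, shGFP IL4 2 or 3 and shKDM1A control 1 or 2. Tnf fell by 0.63 and 0.44 (adjusted p = 0.059).

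Of 45 interferon-stimulated genes tested, 11 were called larger (24.4%, against 3.56% of all genes tested) and none smaller. The median difference was 0.11 and the median response was -0.16 in shGFP and -0.05 in shKDM1A cells. Usp18, which limits interferon signalling, was 9.52, 9.58, 9.54 and 9.64 in shGFP controls, 9.16, 9.17, 9.15 and 9.18 with IL4, 10.88, 10.83, 10.87 and 10.87 in shKDM1A controls, and 10.84, 10.70, 10.82 and 10.75 with IL4. It fell in shGFP cells, while control and IL4 libraries of shKDM1A cells overlapped (difference 0.33, SE 0.04, adjusted p = 3.9e-04). Rtp4 fell by 0.54 and 0.22. Cxcl10, a chemokine, had a difference of 0.30, Irgm1, a GTPase of cell-autonomous defence, 0.21, and Irf9, the DNA-binding part of the interferon factor ISGF3, 0.14. Isg15 (0.06) did not pass. The list's median log2 difference between shKDM1A and shGFP cells was 0.69 without IL4, and the count depended on the scale: on the linear scale 1 member was called larger and 1 smaller. It was 12 larger with the length trend removed, 5 larger with libraries 2 and 4 only and 3 larger without the filter on low values, and 5 also without shGFP IL4 library 2 or without library 3 of that group. It was 6 without shGFP control 4 or shKDM1A control 2, and 7 without shGFP control 1 or shKDM1A control 3.
The upstream sequences of 2 called members are shown with the letters of an interferon response element in capitals, that is GAAA, any 2 bases and GAAA again, or the reverse complement.
Irgm1, chr11:48871421-48871480, - strand: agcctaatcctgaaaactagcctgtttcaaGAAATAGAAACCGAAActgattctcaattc
Cxcl10, chr5:92349063-92349132, - strand: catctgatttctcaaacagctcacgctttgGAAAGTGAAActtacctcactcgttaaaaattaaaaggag
In Irgm1 2 matches overlap. This element, on either strand and chosen after the values were seen, occurred in 19 of 34 promoters of the list (55.9%), in 4 of 8 of its called members (50%), in 4.64% of all genes called larger and in 3.25% of genes tested.

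Of 24 glycolysis and hypoxia genes tested, 10 were called larger and 1 smaller (45.8% in all, against 6.13% of all genes tested), with a median difference of 0.12. Ldha, lactate dehydrogenase A, was 15.10, 15.09, 15.08 and 15.14 in shGFP controls and 15.02, 15.02, 15.02 and 15.03 with IL4. In shKDM1A cells it rose from 15.20, 15.18, 15.20 and 15.21 to 15.39, 15.30, 15.38 and 15.30, libraries 1 and 3 being the higher. The difference was 0.22 (SE 0.03, adjusted p = 7.3e-04). Slc16a3, the lactate exporter, fell by 0.17 in shGFP cells and rose by 0.10 in shKDM1A cells, and Ndrg1, a hypoxia gene, fell by 0.48 and 0.18. Hk1, the hexokinase of most tissues, was the exception, with responses of 0.41 and 0.19. With libraries 2 and 4 only, 3 members were called larger and 2 smaller, removing the length trend left 10 larger and 1 smaller, and quantile normalization gave 6 larger.

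Genes for protein folding in the endoplasmic reticulum had median responses of -0.30 and -0.17, and 6 of 21 were called larger (28.6%, against 3.56% of all genes), with a median difference of 0.10. Hspa5, the chaperone BiP, fell by 0.38 and 0.25, Calr, calreticulin, had a difference of 0.15 and Pdia3, a disulfide isomerase, 0.13. With libraries 2 and 4 only, 1 member was called, quantile normalization gave 3 and removing the length trend 6. Of 31 lysosomal genes 6 were called smaller (19.4%, against 2.57% of all genes) and none larger, while the median of the list was 0.02, with 18 members above 0 and 13 below. Naglu, which degrades heparan sulfate, rose by 0.13 and fell by 0.15. Atp6v0d2, a proton pump subunit, had -0.38. The count was 3 with libraries 2 and 4 only and 6 with the length trend removed.

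The remaining lists held few calls, to be read against 6.13% of all genes called, 3.56% larger and 2.57% smaller, and most of these counts moved when 1 library was left out or when libraries 2 and 4 were the only shKDM1A IL4 libraries. In ribosome biogenesis 5 of 44 were called larger (11.4%), Nop16 and Mrto4 both at 0.20. The count was 4 with the length trend removed, 2 with libraries 2 and 4 only, and 3 without any 1 of shGFP control 4, shGFP IL4 1 or 4, shKDM1A control 3 or 4 and shKDM1A IL4 1 or 3. In mitosis 4 of 30 were called larger (13.3%), among them Cenpa, the centromeric histone, at 0.26 and Cdk1, the mitotic kinase, at 0.17. The count was 5 with the length trend removed and 3 with libraries 2 and 4 only. Oxidative phosphorylation subunits had a median of 0.07 with 3 of 79 called larger, Sdhd and Cyc1 both at 0.18. This share of 3.8% is near the 3.56% of all genes. That count was 2 with the length trend removed, 9 without shKDM1A IL4 library 2 and 1 with libraries 2 and 4 only, where Cyc1 lost its call. Ribosomal protein genes had a median of 0.08 with 1 of 84 called (Rpl7l1, 0.13), a share of 1.19% that is below that of all genes. That count was 1 with the length trend removed and ran from 0 to 11 when each library was left out, with 11 without shKDM1A IL4 library 2, 9 without library 4 of that group, 2 without shKDM1A control library 1 and 0 without any 1 of 9 others, and Rpl7l1 lost its call with libraries 2 and 4 only.

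DNA replication genes had 1 larger (Tk1, 0.13) and 3 smaller of 36 (Mcm4 at -0.11), and both named calls were lost with libraries 2 and 4 only, which left 0 larger and 1 smaller. Removing the length trend gave 1 larger and 4 smaller. Without shGFP IL4 library 2 or shKDM1A control library 3, 1 was called smaller, and 3 were called larger without shKDM1A IL4 library 4 and 2 without shKDM1A control library 1. NRF2 targets had 3 larger of 20, with Taldo1 at 0.22 and Prdx1 at 0.13, but 1 larger and 2 smaller with quantile normalization. Their count was 2 with the length trend removed and 1 with libraries 2 and 4 only, where Prdx1 lost its call, and 1 without shGFP control 4, shGFP IL4 2, shKDM1A control 3 or shKDM1A IL4 3. Immediate early genes had 2 larger (Ier5 at 0.26) and 3 smaller of 30. Leaving out 1 library gave 1 larger for 8 of the 16 libraries and 1 smaller for 10 of them, and libraries 2 and 4 only gave 0 larger and 1 smaller, and removing the length trend 2 and 2. LXR targets had 1 call in each direction of 9, Abcg1 and Myo1e (-0.22), neither of which passed on the linear scale, and the counts were the same with the length trend removed and with libraries 2 and 4 only. Osteoclast genes also had 1 in each direction of 9, Car2 (0.31) and Nfatc1 (-0.18), and the call of Nfatc1 was lost with libraries 2 and 4 only, with the length trend removed and without shGFP control 1, shGFP IL4 1 or 3 or shKDM1A control 3 or 4. Of 16 genes of KDM1A and the CoREST complex Ctbp1 was called (0.14), a share of 6.25% near the 6.13% of all genes. The call was kept with the length trend removed and lost with libraries 2 and 4 only and without shGFP control 1, shGFP IL4 1 or 3, shKDM1A control 2 or 3 or shKDM1A IL4 3. No gene was called by limma of 6 corepressor complex genes (1 at an unadjusted p under 0.05), 12 enzymes of H3K9 methylation (5), 17 MHC class I genes (4) and 6 MHC class II genes (2). Calls appeared when a library was left out. MHC class I genes had 1 larger without shKDM1A control 4 or shKDM1A IL4 2 and 2 without shKDM1A IL4 4, H3K9 enzymes had 1 smaller without shGFP control 2, shKDM1A control 1 or shKDM1A IL4 1, and MHC class II genes had 1 larger without shGFP control 2 and 1 smaller with the length trend removed.

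**Figure D5:**
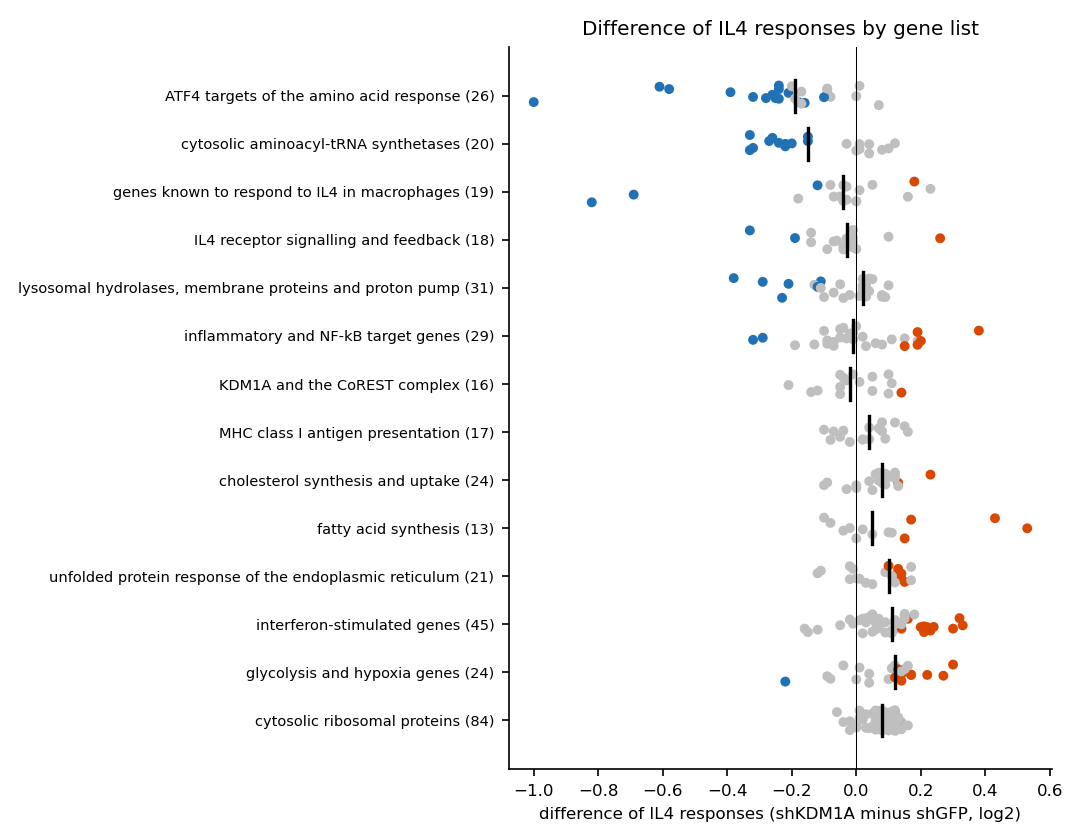
Difference of IL4 responses (x axis, log2, shKDM1A minus shGFP) of the tested members of 14 gene lists, with the number tested in brackets. Each point is a gene, orange when called larger, blue when called smaller and grey when not called, and black bars are medians, from -0.19 for ATF4 targets to 0.12 for glycolysis and hypoxia genes.

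In 65 genes, 0.504% of those tested, IL4 responses passed the test in both lines with opposite signs. All 65 also passed the test of the difference, which follows largely from these calls, since opposite responses add up in it. IL4 raised 33 of the 65 genes in shGFP cells and lowered them in shKDM1A cells. Besides Aldh1l2, Pck2, Asns, Gpt2, Bcar3 and Serpinb6b, these included Trib3, Psph, Chac1, Slc1a4 and Slc6a9 and the synthetases Aars, Cars, Iars, Lars, Mars and Nars. The other 32 fell in shGFP cells and rose in shKDM1A cells by small amounts. Lipt2, a lipoyltransferase, was at 7.63, 7.61, 7.55 and 7.52 in shGFP controls and 7.43, 7.39, 7.34 and 7.42 with IL4, against 7.38, 7.44, 7.44 and 7.46 and then 7.70, 7.57, 7.51 and 7.67. Its IL4 libraries lay below the controls in shGFP cells and above them in shKDM1A cells. Ifi27, an interferon gene, fell by 0.17 and rose by 0.19, Npl, of sialic acid breakdown, fell by 0.15 and rose by 0.22, and the glycolysis genes Tpi1, Eno1 and Ldha and the hypoxia gene P4ha1 were in this group, as were the receptors Tlr2, Clec4e and Fcgr1. None of the 65 had both responses beyond 0.5, and with libraries 1 and 3 only the count was 201.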

How the data were processed

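RNA-seq of shGFP and shKDM1A RAW cells without and with IL4 was analysed (16 libraries). The authors aligned reads to mm9 with HISAT2 and Bowtie2, counted them over exons by HOMER without regard to strand, condensed them to 1 row per gene and deposited log2 values per library. The transformation is not named, though DESeq2 is listed among the tools of these samples. Some genes that failed the filter hardly varied over the 16 libraries. Cd3e, Pax5, Pdgfra and Mpo each ran from -2.27 to -2.26, and Mertk and Elane from -1.00 to -0.98. Whether the transformation shrinks differences of low genes was not tested. Antisense overlaps cannot be resolved. Since the deposited values are no longer counts, a linear model was used. Columns of the table with the authors' own comparisons (fold changes and p-values), and a table of primary macrophages that holds only such comparisons, were not used. Columns with per-library values that could not be assigned to a sample numbered 0.

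Groups came from the labels. R 4.3.3 and limma 3.58.1 (lmFit, eBayes, 4 group means, two-sided) were run on the 12905 genes that reached 1 in 4 or more libraries, and p-values were adjusted over them by Benjamini and Hochberg's method, with a threshold of 0.05. Tested on simulated data of 12905 genes with 200 changed, the step recovered 43 of 67 differences of 0.2, 62 of 67 of 0.4 and 66 of 66 of 0.8, with 12 false calls. Simulated noise was independent for each gene and library. Effects shared by genes within a library, such as the length pattern, were thus not simulated. Totals were 17554721 to 27782568 tags per library, and the number of libraries limits the precision. Genes named were Kdm1a, Ptgs1, Mrc1 and Flt1, the 12 largest called differences in each direction with a mean of at least 5, the 2 called members of each list with the smallest p-values and a mean of at least 5 and the 6 clearest opposite responses. A few genes that this rule names are not reported here. Members of lists and other genes of opposite response named beyond these were chosen after their values were seen. The genes and lists were chosen with earlier results of these data known. Promoters were read from a RefSeq table of GRCm38.p6, which held 10022 of the tested genes. Alternatives were other filters and scalings, a linear scale, other variance models, limits on size, a replicate block and each library left out. Chosen after seeing the data were removal of the length trend and pairs of shKDM1A IL4 libraries. Same-numbered libraries correlated over 0.1 in 3 of 24 pairs, so numbers were not taken as pairing.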

Additional observations from a re-analysis of the deposited data

Results flagged for a closer look

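The IL4 response of the following named genes differed between shKDM1A and shGFP cells by limma's test of the difference (log2 difference of responses, adjusted p under 0.05 over all genes tested). The values were -1.12 for Aldh1l2, -1.0 for Pck2, -0.61 for Asns, -0.58 for Trib3, -0.52 for both Slc1a4 and Gpt2 and -0.45 for Slc6a9. Among genes of IL4 response and signalling they were -0.82 for Mrc1, -0.69 for Ptgs1, -0.33 for Socs1 and 0.26 for Il13ra1. Other smaller responses were those of Angptl2 at -0.60, Bcar3 at -0.58, Serpinb6b and Fosl2 both at -0.55, Tgfbr1 at -0.53, Tnfaip2 at -0.32, Naglu at -0.29, Myo1e at -0.22, Nfatc1 at -0.18 and Mcm4 at -0.11.

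The larger responses were led by Pdcd1 at 0.70, Id3 at 0.69, Vegfc at 0.55, Scd1 at 0.53, Cd14 at 0.48, Scd2 at 0.43, Lyz2 at 0.42, Tmem38b at 0.40 and Traf1 at 0.38, with Lyz1, Ltb, Npl and Lipt2 all at 0.37. Usp18 was at 0.33, Rtp4 at 0.32, Car2 at 0.31, Slc16a3 at 0.27, Cenpa and Ier5 both at 0.26, Fdps at 0.23, Ldha and Taldo1 both at 0.22, Nop16 and Mrto4 both at 0.20 and Abcg1 at 0.19. The smallest were Sdhd and Cyc1 at 0.18, Cdk1 at 0.17, Calr at 0.15, Ctbp1 at 0.14, and Lss, Tk1, Pdia3, Rpl7l1 and Prdx1 at 0.13.

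In 6 of 240 groups of 4 libraries (60 named genes) 1 library stood apart from the others by Dixon's criterion, which flags about 1 in 20 groups by chance. The log2 values were 7.72 for Ptgs1 and 10.15 for Tnfaip2 in shKDM1A IL4 libraries, 12.73 for Slc16a3 in a shKDM1A control library, 9.60 for Angptl2 and 11.67 for Abcg1 in shGFP control libraries and 6.60 for Trib3 in a shGFP IL4 library.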

How the results depend on the processing

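The transformation behind the log2 values is not named, so what depth limits in low genes was not tested. Against 791 genes called (459 larger, 332 smaller), no filter on low values gave 431 (253 larger, 178 smaller), a cause that was not tested. Requiring a size over 0.5 gave 17 (4 larger, 13 smaller), with 174 responses in shGFP cells, 141 in shKDM1A cells and 0 opposite. Over 1, there was 1 (0 larger, 1 smaller), with 26 and 21 responses and 0 opposite. Median centring moved the share called larger from 58% to 66.2%. Leaving out each library gave 530 to 1104 calls (300 to 611 larger, 228 to 493 smaller), with 300 larger without shGFP IL4 library 3. With shKDM1A IL4 libraries 2 and 4 only there were 348 (177 larger, 171 smaller), and with 1 and 3 only 2282 (1099 larger, 1183 smaller) and 201 opposite. A replicate block gave 732 calls. Same-numbered libraries correlated from -0.34 to 0.27 over 24 pairs, 3 of them over 0.1. Of the 60 named genes the block ended the call of Rpl7l1. On the linear scale, in units of 2 to the power of the value, the difference turned to -78.8 for Id3, -29.9 for Scd1, -8690 for Lyz1, -2.52 for Abcg1 and 41.4 for Angptl2, and Flt1 was called at -137. Of the turned differences only that of Lyz1 passed. Flt1, at 0.00, changed sign at 0.01 with median centring and with quantile normalization, 0.02 with library weights, 0.07 with the length trend removed, 0.08 with libraries 2 and 4 only and -0.06 to 0.03 when each library was left out. With libraries 2 and 4 only, 12 named genes lost their call, among them Ier5, Lss, Mcm4, Tk1, Calr, Pdia3, Cyc1, Rpl7l1, Prdx1, Ctbp1 and Nfatc1.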
